A study of Mus musculus with 15 samples.

Results

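The let-7 miRNAs are a family of small regulatory RNAs that share their 5′ end, and 8 of them, mmu-let-7a-5p to mmu-let-7i-5p, were measured in mouse liver on 3 diets. The members were the 8 mouse miRNAs that the array names let-7 and that come from the 5′ arm of their hairpins, out of 696 mouse miRNAs on the array. All 8 were detected on all 15 arrays and were among the 178 miRNAs that were detected on every array of at least 1 diet and were therefore tested. All mice were male mice of a strain that the labels spell B6C57/J and the study C57BL/6, and were 1 year old when the diets began and stayed on them for the rest of their lives. The SD group ate the AIN-93G diet ad libitum, the CR group was given the same diet under 40% caloric restriction, and the Met group ate it ad libitum with metformin added at 0.1% w/w. Total liver RNA of 5 mice per diet was labeled with Cy3, and each mouse had 1 single-color array. The labels do not give the age at which the livers were taken.

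Mature let-7 miRNAs guide Argonaute proteins to messenger RNAs through the seed, the bases near the 5′ end that pair with the target, and lower the output of those messages. Known targets of the family include Hmga2, Lin28b, Myc, Ras genes and Dicer1, the RNase that also cuts the let-7 precursors. LIN28 proteins block let-7 maturation in embryonic and many tumor cells, so that let-7 is low in undifferentiated cells and abundant in differentiated tissues such as adult liver, where the family has been linked to insulin signaling and glucose handling.

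The mature sequences are shown because the members differ by so few bases that a probe for 1 member may also bind another. They are taken from RefSeq (GRCm38.p6), run 5′ to 3′, and have the seed, bases 2 to 8, in capitals. mmu-miR-98-5p is added as a miRNA with the same seed under another name.
mmu-let-7a-5p: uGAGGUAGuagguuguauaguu
mmu-let-7b-5p: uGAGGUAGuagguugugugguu
mmu-let-7c-5p: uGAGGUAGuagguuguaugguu
mmu-let-7d-5p: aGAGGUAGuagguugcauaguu
mmu-let-7e-5p: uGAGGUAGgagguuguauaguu
mmu-let-7f-5p: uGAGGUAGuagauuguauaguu
mmu-let-7g-5p: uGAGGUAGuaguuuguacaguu
mmu-let-7i-5p: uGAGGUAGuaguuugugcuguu
mmu-miR-98-5p: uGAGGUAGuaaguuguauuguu

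All 8 members were 22 bases long and had 1 seed in common, so that they differed only outside it. Counted from 1 at the 5′ end, with the base of mmu-let-7a-5p written first, mmu-let-7c-5p differed from it by A19G, mmu-let-7e-5p by U9G and mmu-let-7f-5p by G12A, a single base each. mmu-let-7b-5p carried A17G and A19G, mmu-let-7d-5p carried U1A and U16C, and mmu-let-7g-5p carried G12U and U18C. mmu-let-7i-5p was the most distant from mmu-let-7a-5p, with G12U, A17G, U18C and A19U. Of the 28 possible pairs of members, 4 differed at 1 base, 8 at 2 bases and 8 at 3 bases, and the most distant pair, mmu-let-7d-5p and mmu-let-7i-5p, differed at 6. The number of G and C bases ran from 7 in mmu-let-7f-5p to 10 in mmu-let-7b-5p.

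The family is spread over several chromosomes, and some members are neighbors. On the minus strand of chromosome 13, the mature sequences of mmu-let-7a-5p (Mirlet7a-1, chr13:48538239-48538260), mmu-let-7f-5p (Mirlet7f-1, chr13:48537889-48537910) and mmu-let-7d-5p (Mirlet7d, chr13:48536078-48536099) lie within 10000 bases of each other. mmu-let-7b-5p (chr15:85707325-85707346) and 1 of the 2 listed copies of mmu-let-7c-5p (Mirlet7c-2, chr15:85706616-85706637) lie together inside the non-coding gene Lncppara, on the plus strand. The other copy of mmu-let-7c-5p (Mirlet7c-1, chr16:77599672-77599693) neighbors Mir99a, and mmu-let-7e-5p (chr17:17830366-17830387) neighbors Mir125a inside Spaca6. The other listed copy of mmu-let-7f-5p (Mirlet7f-2, chrX:151912353-151912374) lies next to Mir98 inside Huwe1, a ubiquitin ligase gene. mmu-let-7g-5p (chr9:106178846-106178867) lies inside Wdr82, while mmu-let-7i-5p (chr10:122985698-122985719, minus strand) had no other miRNA hairpin within 10000 bases in the table. Only copies listed in RefSeq under the same mature name are given, so that other copies of a member may be missing. An array reads the mature RNA and cannot tell which copy made it.

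Each member was read by 2 probes of 10 spots each, 20 spots per array. Unless stated otherwise, a level is a z-score, the natural log of the median spot signal minus the mean of the array, divided by the SD of the array, and a difference is between 2 group means of z-scores. Levels are compared between mice for 1 member at a time, since different probes bind with different strength. The Z ratio is a difference divided by the SD of the differences of all 696 miRNAs. A miRNA met the criteria when its p was at most 0.05, its adjusted p at most 0.3 and its Z ratio at least 1.5 in size, with p from limma and Benjamini-Hochberg adjustment over the 178 tested miRNAs.

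The CR arrays stood apart from the others, 2 of them most. CR mice 2 and 3 had 167 and 151 detected miRNAs, against 170 to 205 on the SD arrays and 182 to 191 on the Met arrays, and the SD of their ln signal was 0.674 and 0.646, below the 0.727 to 0.800 of the SD and Met arrays. CR mouse 4 was also below that range, at 0.699, with 184 detected miRNAs. The median signal of the bright corner control spots was 130.5 to 145.2 on the CR arrays and 159.8 to 445.2 on the SD and Met arrays. The part of these array differences in the let-7 values was not tested. The arrays lay on 2 slides, with all SD mice and Met mice 1 to 3 on slide 1 and all CR mice and Met mice 4 and 5 on slide 2, so that CR and SD were never side by side. Among the SD mice, mice 3 and 5 read higher than mice 1, 2 and 4 for all 8 members. Of the liver's own miRNAs, miR-122-5p, the defining hepatocyte miRNA, was detected on all arrays at a mean z-score of 6.07 in SD, 6.29 in CR and 6.33 in Met.

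**Figure D1:**
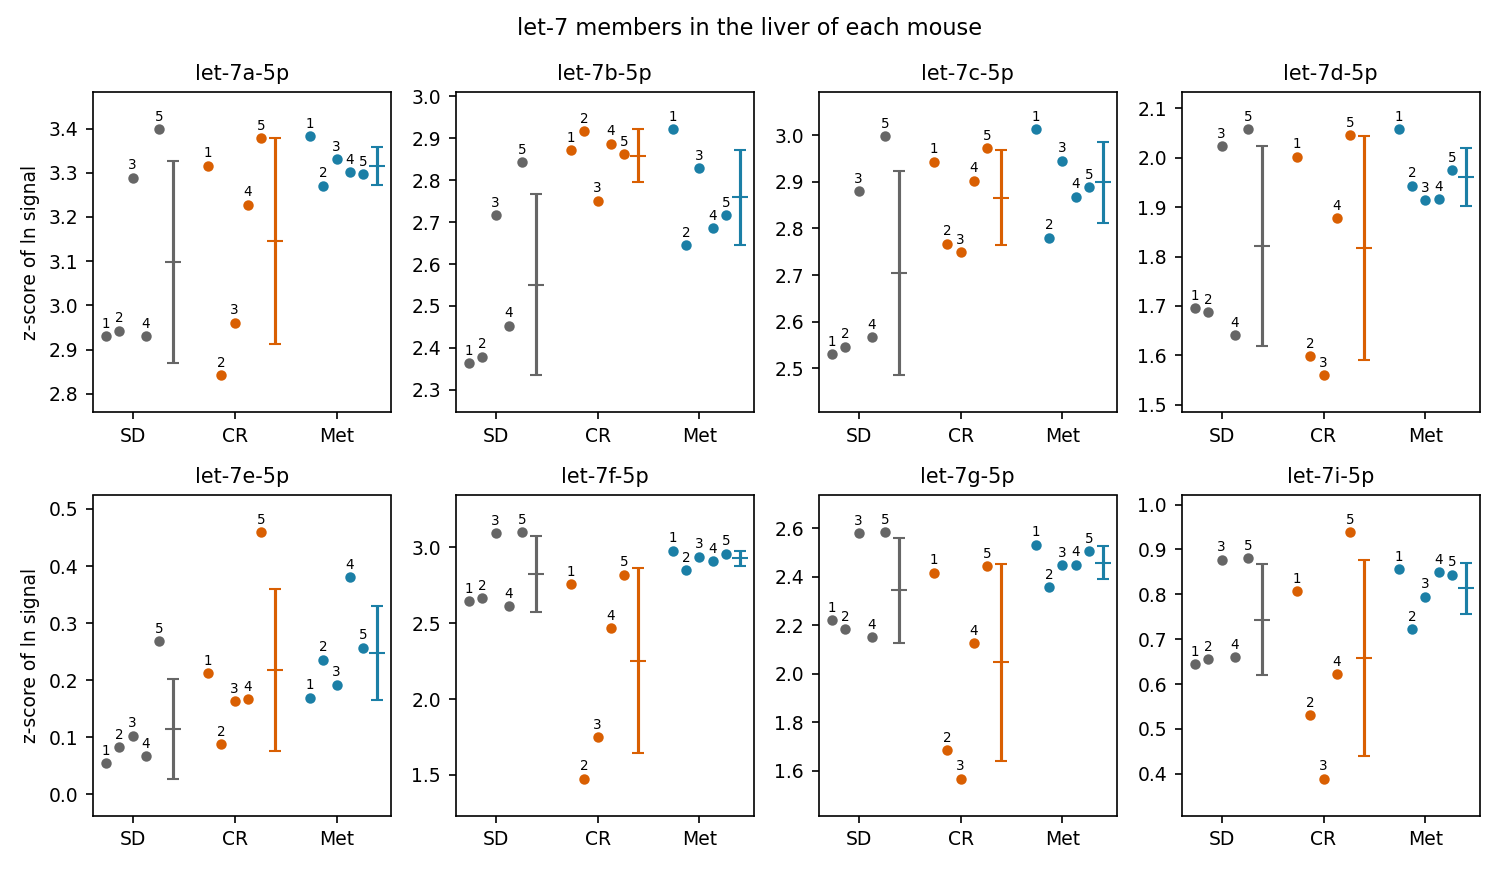
The level of each let-7 member (y axis, z-score of the ln signal, a separate scale in each panel) in each of 5 SD, 5 CR and 5 Met mice. Numbers are mouse numbers within a diet and bars are the group mean ± SD. CR mice 2 and 3 are the lowest points for let-7f-5p and let-7g-5p but not for let-7b-5p.

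With CR, the family did not move as a block. mmu-let-7f-5p met the criteria as lower in CR against both other diets, mmu-let-7g-5p as lower against Met, and mmu-let-7b-5p as higher against SD. The other 5 members met the criteria in neither comparison. Each of these calls was lost under some of the settings given below. Against SD, 2 of 8 members met the criteria, 1 in each direction, where 17.4% of all tested miRNAs met them, 2.81% as higher and 14.6% as lower in CR. Against Met, 2 of 8 members met them, both lower in CR, where 20.8% of all tested miRNAs met them and 16.3% as lower. In whole liver RNA, fewer cells of a type and less RNA per cell cannot be told apart. With 8 members, these counts are given beside those shares and not as a result about the family as a whole.

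mmu-let-7f-5p had the widest range in CR of the 8 members. Its z-score in CR mice 1 to 5 was 2.76, 1.48, 1.75, 2.47 and 2.82. In SD mice 1 to 5 it was 2.64, 2.66, 3.09, 2.61 and 3.10, and in Met mice 1 to 5 it was 2.98, 2.85, 2.94, 2.91 and 2.96. Mice 2 and 3 were the lowest in CR by a wide margin, all 5 CR mice lay below all 5 Met mice, and CR overlapped SD, with mice 1 and 5 inside the SD range. Over all tested miRNAs, 8.99% had every CR array below every Met array.

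The mean of mmu-let-7f-5p in CR was 2.25 ± 0.609 (SD, n = 5), against 2.82 ± 0.251 in SD and 2.93 ± 0.0503 in Met. CR lay below SD by a difference of -0.57 (95% interval -1.04 to -0.0929, adjusted p = 0.0598, limma) and a Z ratio of -3.42. Against Met the difference was -0.67 (95% interval -1.15 to -0.198, adjusted p = 0.0316, limma) with a Z ratio of -4.34. Without CR mice 2 and 3, the differences were -0.14 from SD (adjusted p = 0.496) and -0.24 from Met (adjusted p = 0.293), so that neither call remained. The call against SD was also lost without CR mouse 2 alone (adjusted p = 0.175), CR mouse 3 alone (0.168), SD mouse 3 (0.139) or SD mouse 5 (0.116), with the lower mean in CR kept each time. With the slide as a block, the difference from SD was -0.58 (adjusted p = 0.375) and the call was lost, while that from Met was -0.68 (adjusted p = 0.115) and met the criteria. On slide 2 alone, where 5 CR mice faced Met mice 4 and 5, the difference was -0.68 and the call was lost (unadjusted p = 0.111, adjusted p = 0.25, limma).

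mmu-let-7g-5p followed the same mice. In CR mice 1 to 5 its z-score was 2.42, 1.69, 1.57, 2.13 and 2.44. It was 2.22, 2.19, 2.58, 2.15 and 2.58 in SD mice 1 to 5 and 2.53, 2.36, 2.45, 2.45 and 2.50 in Met mice 1 to 5. CR mice 2 and 3 were again far below the rest, and CR mice 1 and 5 lay within both other groups.

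CR lay below Met for mmu-let-7g-5p by a difference of -0.41 (SE 0.164, adjusted p = 0.0632, limma) with a Z ratio of -2.64. The difference from SD was -0.30 (SE 0.164, adjusted p = 0.173) with a Z ratio of -1.78 and did not meet the criteria. Without CR mice 2 and 3 these differences were -0.13 and -0.0151, and the call against Met was lost without either mouse alone (adjusted p = 0.173 without mouse 2 and 0.166 without mouse 3). With the slide as a block the difference from Met was -0.43 (unadjusted p = 0.0764, adjusted p = 0.16, limma), and within slide 2 it was also -0.43 (unadjusted p = 0.154, adjusted p = 0.286, limma), and the call was lost in both.

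mmu-let-7b-5p ran the other way. Its z-score in CR mice 1 to 5 was 2.87, 2.92, 2.75, 2.89 and 2.86, and the SD of 0.0633 was the smallest of any member in CR. It was 2.36, 2.38, 2.72, 2.45 and 2.84 in SD and 2.92, 2.65, 2.83, 2.69 and 2.72 in Met. CR mice 2 and 3, the lowest for mmu-let-7f-5p, were not both low here, and 4 of 5 CR mice lay above the highest SD mouse. The mean in CR was higher than in SD by 0.31 (95% interval 0.0766 to 0.538, adjusted p = 0.0438, limma), a Z ratio of 1.85. From Met it differed by 0.0987 (adjusted p = 0.460). Without CR mice 2 and 3 the difference from SD was 0.32 (adjusted p = 0.0981) and still met the criteria, whereas with the slide as a block it was 0.40 with an adjusted p of 0.257 and did not.

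mmu-let-7c-5p, which is a single base from mmu-let-7b-5p and shares a locus with it, had a mean z-score of 2.87 ± 0.102 (SD, n = 5) in CR, 2.70 ± 0.218 in SD and 2.90 ± 0.0868 in Met. In CR mice 1 to 5 it was 2.94, 2.77, 2.75, 2.90 and 2.97, so that mice 2 and 3 were the lowest in their group but within the SD range of 2.53 to 3.00. The difference of CR from SD was 0.16 (adjusted p = 0.266), and from Met it was -0.0326 (adjusted p = 0.808).

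The remaining members, mmu-let-7a-5p, mmu-let-7d-5p, mmu-let-7i-5p and mmu-let-7e-5p, did not meet the criteria for CR against SD on the z-score scale. mmu-let-7a-5p, the member to which the others are usually compared, differed between CR and SD by 0.0468 (adjusted p = 0.806), with CR mice 2 and 3 at 2.84 and 2.96 and the other CR mice at 3.23 to 3.38. mmu-let-7d-5p, its neighbor on chromosome 13, differed by -0.00425 (adjusted p = 0.982), with CR mice 2 and 3 at 1.60 and 1.56 and the others at 1.88 to 2.05. In both, CR mice 2 and 3 were the lowest of their diet.

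mmu-let-7i-5p differed between CR and SD by -0.0863 (adjusted p = 0.498), and its lowest CR mice were mouse 3 at 0.389 and mouse 2 at 0.530, against an SD range of 0.644 to 0.881. mmu-let-7e-5p, the cluster partner of miR-125a, differed by 0.103 (adjusted p = 0.225), with a CR range of 0.0883 to 0.459 and an SD range of 0.0552 to 0.268. The 95% intervals of these 4 differences ran from -0.285 at the lowest to 0.324 at the highest, and each included 0.

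**Figure D2:**
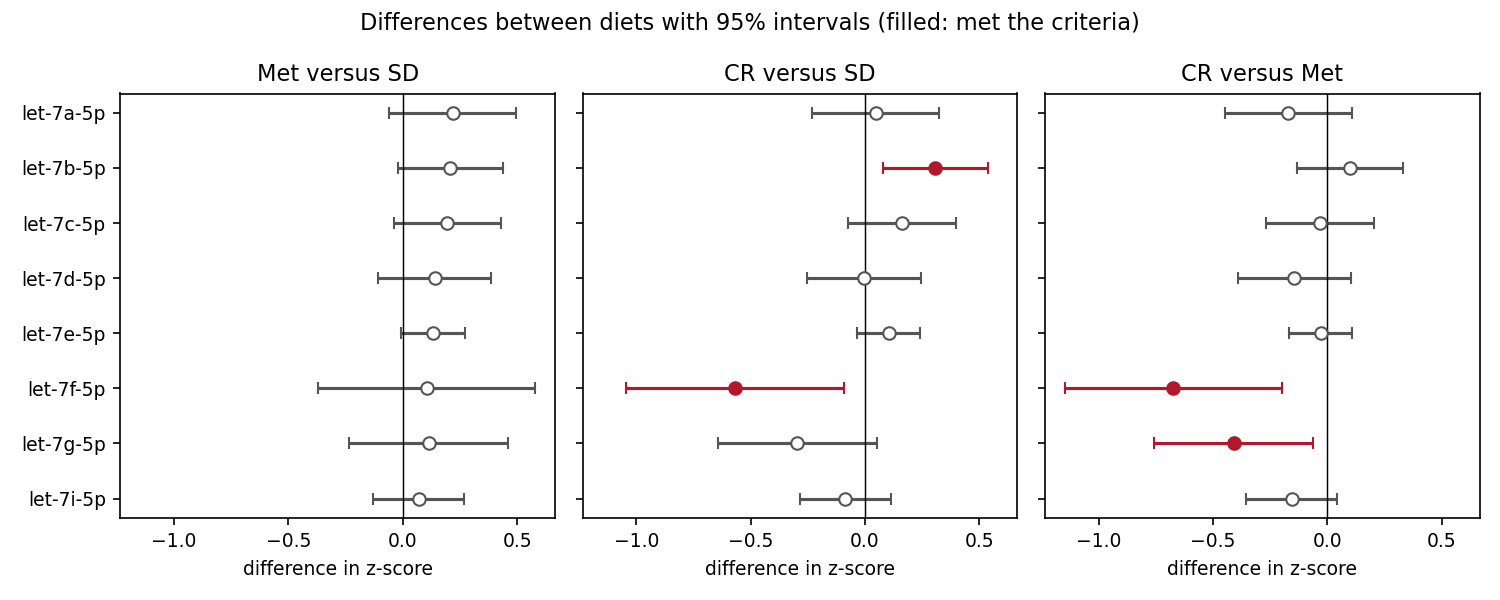
Difference between diets in z-score (x axis) for each let-7 member (y axis), with 95% intervals from limma over 15 arrays. Filled red points met the criteria: let-7b-5p and let-7f-5p for CR versus SD, let-7f-5p and let-7g-5p for CR versus Met, and no member for Met versus SD.

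With metformin, all 8 members had a higher mean than in SD, where 56.2% of all tested miRNAs did, and none met the criteria, where 1.12% of all tested miRNAs did. The differences ran from 0.0700 for mmu-let-7i-5p to 0.218 for mmu-let-7a-5p, with a median of 0.136, beside a median of 0.00838 over all tested miRNAs. A higher mean in Met was not particular to the family. It was also seen in 6 of 6 tested miRNAs from let-7 clusters and in 3 of 4 hepatocyte miRNAs, none of which met the criteria. Among them, miR-122-5p differed by 0.252, more than any member. Adjusted p-values ran from 0.679 to 0.930 (limma). The unadjusted p was above 0.05 for every member, and the methods' own Z-based comparison called 2, mmu-let-7a-5p (adjusted p = 0.286) and mmu-let-7e-5p (0.138), where it called 7.3% of all tested miRNAs.

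The Met mice were alike. mmu-let-7a-5p read 3.38, 3.27, 3.33, 3.30 and 3.30 in Met mice 1 to 5, against 2.93, 2.94, 3.29, 2.93 and 3.40 in SD mice 1 to 5. The Met values thus lay with SD mice 3 and 5 and above SD mice 1, 2 and 4, and the groups overlapped. mmu-let-7e-5p read 0.169, 0.236, 0.192, 0.381 and 0.257 in Met mice and 0.0552, 0.0824, 0.103, 0.0667 and 0.268 in SD mice, with 4 of the 5 SD mice below every Met mouse. Its difference of 0.132 (SE 0.0651) had the lowest unadjusted p of the family in this comparison, 0.0603 by limma, and an adjusted p of 0.679. Without SD mouse 5, 3 members met the criteria as higher in Met, namely mmu-let-7b-5p, mmu-let-7c-5p and mmu-let-7e-5p, where 5.06% of all tested miRNAs met them and 3.37% as higher in Met. Within slide 1, with 5 SD and 3 Met mice, none did.

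Whether members differed from each other in their response was tested within arrays, where a shift common to the whole array cancels. For each of the 28 pairs, the gap between the 2 z-scores on an array was compared between diets by a two-sided exact permutation test over the 252 ways to part 10 mice, with adjustment over all 84 tests. The smallest p this allows is 0.00794. At an adjusted p of 0.05, 17 of 28 gaps differed for CR versus SD, 13 for CR versus Met and 2 for Met versus SD. The pairs that passed had an exact permutation p of at most 0.0159, a limit that 23.7%, 24.2% and 5.06% of the 15753 pairs among all tested miRNAs also reached in these comparisons. Pairs that share a member are not independent, and on values centered without division by the array SD the count for CR versus SD was 10.

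All 7 pairs that hold mmu-let-7f-5p differed in both CR comparisons. The gap of mmu-let-7f-5p minus mmu-let-7b-5p was 0.279, 0.282, 0.378, 0.157 and 0.254 in SD mice 1 to 5. It was -0.116, -1.44, -1.004, -0.421 and -0.0429 in CR mice 1 to 5, and 0.0560, 0.203, 0.110, 0.222 and 0.240 in Met mice 1 to 5. Every CR mouse, including mice 1, 4 and 5, lay below every SD and every Met mouse. The gap was above 0 in all SD and Met mice and below 0 in all CR mice, most in mice 2 and 3. Its sign does not tell which member is more abundant, since the probes differ in strength, and only its change between diets is read. The exact permutation p was 0.00794 against each diet (adjusted p = 0.0303).

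The gap between mmu-let-7f-5p and mmu-let-7a-5p, which differ by G12A alone, behaved in the same way. It was -0.321 to -0.195 in SD, -0.423 to -0.340 in Met and -0.559, -1.37, -1.21, -0.762 and -0.559 in CR mice 1 to 5. On average the gap was highest in SD and lowest in CR. It was 1 of the 2 gaps that differed between Met and SD, by 0.113 (exact permutation p = 0.00794, adjusted p = 0.0303). The other was the gap between mmu-let-7a-5p and mmu-let-7g-5p, which differed by 0.103 (exact permutation p = 0.0159, adjusted p = 0.0417). In both, the gap moved toward mmu-let-7a-5p in the Met mice.

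mmu-let-7b-5p and mmu-let-7c-5p, the A17G pair from a common locus, also parted with CR. Their gap was -0.00836 ± 0.0993 (SD, n = 5) in CR, -0.154 ± 0.0227 in SD and -0.140 ± 0.0381 in Met, a change of 0.145 from SD (exact permutation p = 0.00794, adjusted p = 0.0303) and of 0.131 from Met (exact permutation p = 0.0159, adjusted p = 0.0417). In contrast, the gap between the neighbors mmu-let-7a-5p and mmu-let-7d-5p changed by 0.0510 with CR against SD (adjusted p = 0.226), and that between mmu-let-7d-5p and mmu-let-7i-5p, the most distant pair, by 0.0821 (adjusted p = 0.226).

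These counts rest on many pairs that reach the smallest p together. Leaving out any 1 of the 5 SD or any 1 of the 5 Met mice left 0 of the pairs in each of the 3 comparisons past the adjusted limit, while 17 to 19 gaps between CR and SD kept an unadjusted p of at most 0.05. A Met mouse takes no part in the CR versus SD gaps, and their count fell only through the adjustment shared by the 3 comparisons. These 0s therefore do not show how far the gaps rest on the mouse left out. Leaving out any 1 CR mouse left 15 to 18 pairs for CR versus SD and 12 to 17 for CR versus Met. Without both CR mice 2 and 3, 0 pairs passed in each comparison, and an unadjusted p of at most 0.05 was left for 13 gaps against SD and 11 against Met. Fewer CR mice raise the smallest p that the test allows, and Met versus SD, which holds no CR mouse, also fell to 0. These 0s do not tell how far the gaps rest on CR mice 2 and 3.

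**Figure D3:**
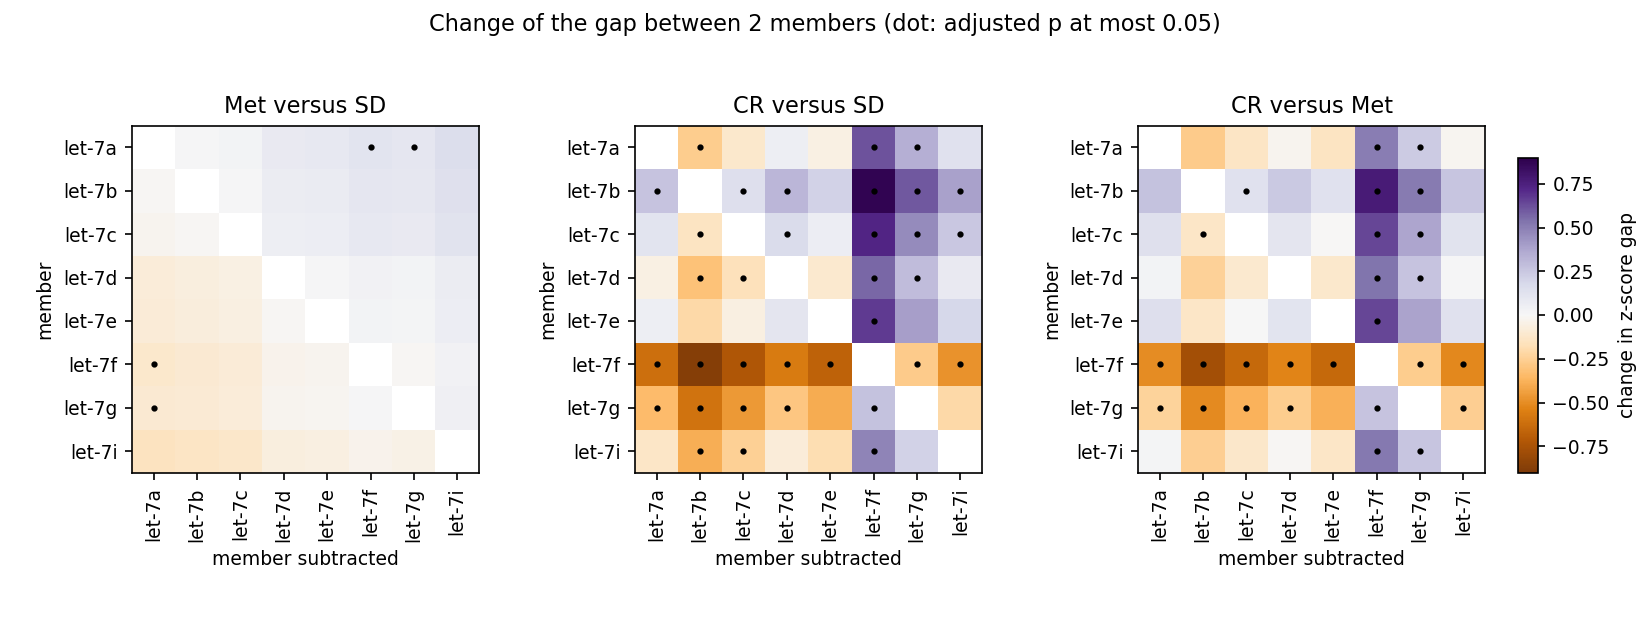
Change between diets in the gap of 2 let-7 members on the same array (color, z-score units), for the member in the row minus the member in the column. Dots mark an adjusted p of at most 0.05 by the exact permutation test. The let-7f row and column are filled in both CR comparisons, whereas Met versus SD has 2 marked pairs, let-7a with let-7f and with let-7g.

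The CR minus SD differences can be set beside the bases in which the members differ, as a description seen in these data. The highest differences were those of mmu-let-7b-5p and mmu-let-7c-5p, the 2 members that carry A19G, at 0.31 and 0.16. The lowest were those of mmu-let-7f-5p, mmu-let-7g-5p and mmu-let-7i-5p, at -0.57, -0.30 and -0.0863, and these are the 3 members that differ from mmu-let-7a-5p at the base of G12A and G12U. By content, mmu-let-7b-5p with 10 G and C bases was the highest and mmu-let-7f-5p with 7 the lowest, and among those between, mmu-let-7i-5p with 9 lay below mmu-let-7a-5p with 8. These orders are those of the z-score and did not hold under every scaling. Scaled to the 75th percentile of detected probes, mmu-let-7e-5p (0.52) lay above mmu-let-7c-5p (0.37), and mmu-let-7i-5p (0.28) above mmu-let-7a-5p (0.23), in log2 units. With total gene signal, mmu-let-7e-5p (0.76) lay above mmu-let-7b-5p (0.69). A link between base content and the signal of CR mice 2 and 3 was not tested.

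Near-identical members did not always read alike. Over the 15 arrays, the root mean square difference between 2 members, each centered on its own mean, was 0.0862 to 0.332 for the 4 pairs that differ at 1 base, 0.0535 to 0.425 for the 8 pairs at 2 bases and 0.0747 to 0.502 for the 16 pairs at 3 or more. The ranges overlapped, and the medians were 0.119, 0.179 and 0.175. How far the probes of 1 member bind another could not be measured, because the probe sequences are not among the values used here, so that the level of each member is uncertain to the extent that its probes read its neighbors.

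The 2 probes of a member gave the same direction for CR against SD in 7 of 8 members. The exception was mmu-let-7d-5p, whose probes gave differences of -0.0395 and 0.0310. For mmu-let-7f-5p both probes were lower in CR, with a difference of -0.46 for the brighter probe (mean 2.97 in CR and 3.42 in SD) and of -0.68 for the dimmer one (1.54 and 2.22). For mmu-let-7b-5p both were higher, by 0.27 and 0.34.

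mmu-let-7f-5p was also the member whose probes disagreed most between arrays. The log2 ratio of its brighter to its dimmer probe was 1.46 to 1.53 in SD and 1.58 to 1.63 in Met, and 1.66, 2.19, 1.97, 1.75 and 1.70 in CR mice 1 to 5. The ratio was above every SD and Met value on all 5 CR arrays and largest in CR mice 2 and 3, which had the lowest mmu-let-7f-5p. For mmu-let-7g-5p it was 0.80 to 0.89 in SD and 0.87 to 0.97 in CR, with CR mice 2 and 3 at 0.87 and 0.90. The mean log2 ratio was higher in CR and Met than in SD for all 8 members.

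**Figure D4:**
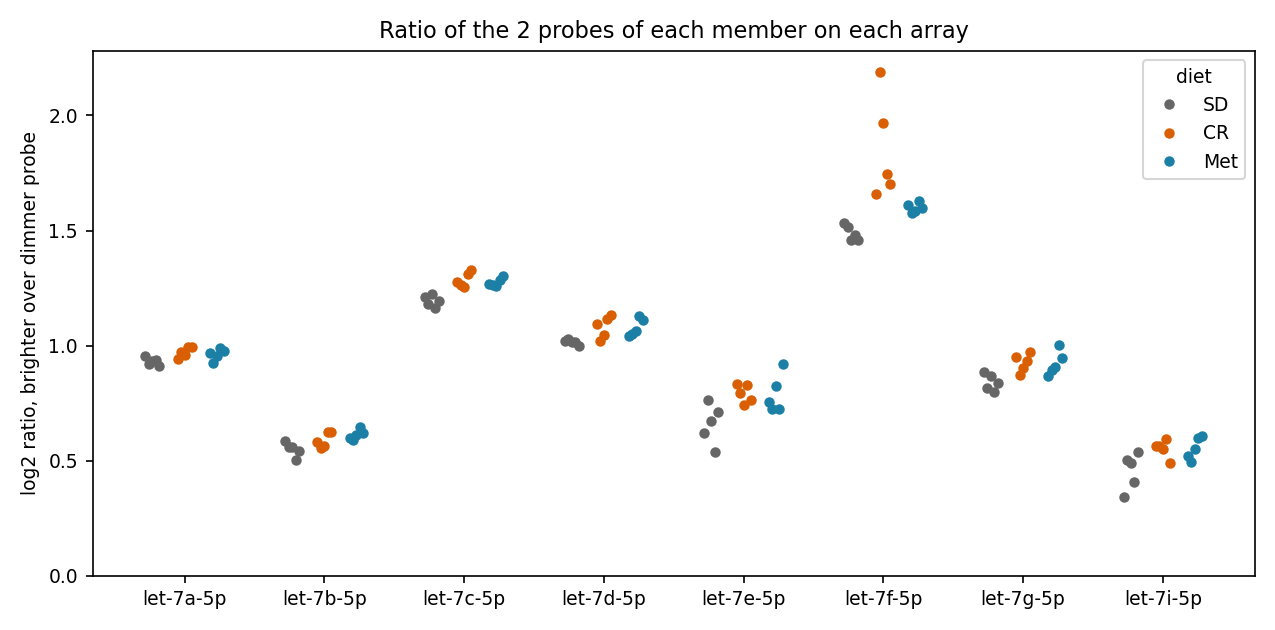
Log2 ratio of the brighter to the dimmer probe (y axis) of each let-7 member (x axis) on each array, colored by diet. let-7f-5p in CR spans 1.66 to 2.19, above its SD and Met arrays, a wider span than that of any other member within any diet.

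The direction of several members depended on how the arrays were scaled. On the z-score scale the median difference of all tested miRNAs between CR and SD was -0.0161. Scaled to the 75th percentile of the detected probes the same median was 0.37 on the log2 scale, a setting that called 67.4% of the tested miRNAs in this comparison, 61.8% as higher in CR, and scaled to that of all probes it was -0.0787. mmu-let-7f-5p was lower in CR than in SD under every scaling run, with differences of -0.81 to -0.32 on log2 scales, and mmu-let-7b-5p and mmu-let-7e-5p were higher under every one, by 0.0773 to 0.69 and by 0.0652 to 0.76. mmu-let-7a-5p, mmu-let-7c-5p, mmu-let-7d-5p and mmu-let-7i-5p changed sign between scalings, and mmu-let-7g-5p did so under quantile normalization, at 0.0248.

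Relative to the median of all tested miRNAs, the log2 differences between CR and SD ran from -0.73 to -0.37 for mmu-let-7f-5p and from 0.16 to 0.51 for mmu-let-7b-5p. Of the alternative settings run, mmu-let-7b-5p met the criteria against SD in 29 of 33, and lost the call when scaled to the 75th percentile of all probes, centered without division, tested without a filter or fitted with the slide as a block. mmu-let-7f-5p met them in 21 of 33 against SD and 31 of 34 against Met, and mmu-let-7g-5p in 24 of 34 against Met. Quantile normalization, z-scores over detected miRNAs and total gene signal each ended the calls of mmu-let-7f-5p against SD and of mmu-let-7g-5p against Met, and the brighter probe alone ended the former.

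The background-subtracted total gene signal of the scanner software, scaled to the 75th percentile, gave the sizes in folds. Between CR and SD it was 1.61-fold for mmu-let-7b-5p, 1.44-fold for mmu-let-7c-5p, 1.69-fold for mmu-let-7e-5p and 0.803-fold for mmu-let-7f-5p, and the median of all tested miRNAs was 0.28 higher on the log2 scale. Between Met and SD the 8 members ran from 1.02-fold to 1.32-fold, all above 1. mmu-let-7e-5p had the largest fold in both comparisons and the lowest signal of the 8 members, a mean of -3.23 in SD on this log2 scale.

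**Figure D5:**
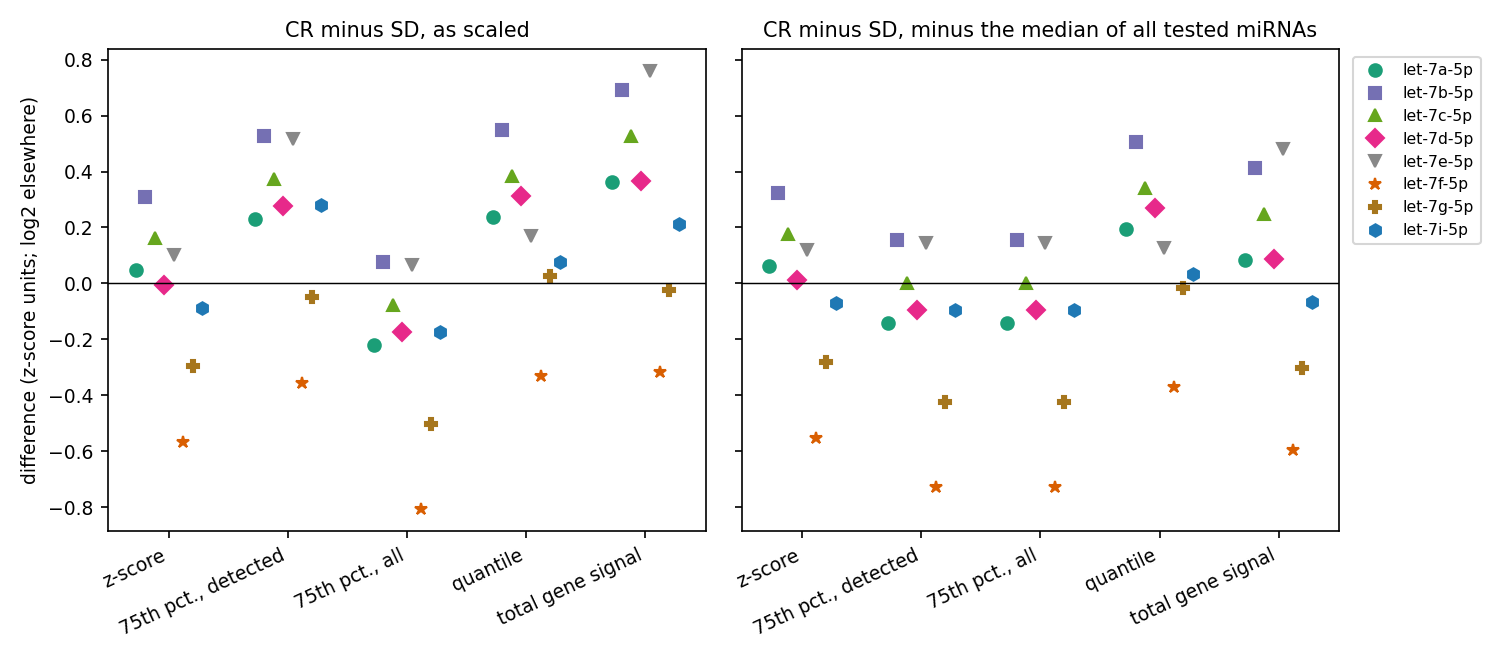
CR minus SD difference of each let-7 member (y axis, z-score units at the left position and log2 units at the others) under 5 scalings (x axis), as scaled (left) and minus the median of all tested miRNAs (right). let-7f-5p is the lowest in each, let-7b-5p and let-7e-5p are above 0 in each, and the other members move with the scaling.

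The miRNAs tied to the family by seed or locus are given for comparison. mmu-miR-98-5p, which shares the let-7 seed and sits beside a copy of mmu-let-7f-5p, was detected on all 15 arrays and differed between CR and SD by -0.0309 (adjusted p = 0.370) and between Met and SD by 0.0141 (adjusted p = 0.930). mmu-miR-202-3p, often listed with the family, did not hold the let-7 seed in the RefSeq table and differed between CR and SD by 0.0913 (adjusted p = 0.0765, Z ratio 0.55). The 7 opposite-arm let-7 miRNAs on the array were detected on 0 of 15 arrays, which gives only a bound on their level.

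Of the 6 miRNAs from let-7 clusters, 6 were tested and 0 met the criteria in any of the 3 comparisons, with 2 to 3 of 6 higher in CR. miR-125b-5p, a frequent cluster partner of let-7 that is known for its part in cell growth and differentiation, was higher in CR than in SD by 0.21 (adjusted p = 0.0588, Z ratio 1.26) and missed the Z ratio limit. miR-99b-5p was higher by 0.0923 (adjusted p = 0.00932, Z ratio 0.55). miR-99a-5p, the neighbor of Mirlet7c-1, differed by -0.0823 (adjusted p = 0.477).

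Other miRNAs of liver cells moved on the same arrays. Of 4 hepatocyte miRNAs, 3 met the criteria as lower in CR against SD and against Met, where 14.6% and 16.3% of all tested miRNAs did. They were miR-192-5p with a difference of -0.89 from SD, miR-148a-3p with -0.81 and miR-194-5p with -0.51, whereas miR-122-5p differed by 0.22 (adjusted p = 0.155). The CR mice spread widely. CR overlapped SD for miR-192-5p (1.23 to 2.91 against 2.85 to 3.27) and miR-194-5p (1.36 to 2.53 against 2.35 to 2.65), but not for miR-148a-3p (0.272 to 1.73 against 1.785 to 2.04). The summed scaled signal of the 4 was 34.9 to 48.9 in SD, 46.2 to 53.3 in CR and 44.9 to 46.8 in Met, being ruled by miR-122-5p. Of 2 endothelial miRNAs, miR-126-3p was lower in CR than in Met with a difference of -0.42 (adjusted p = 0.0852) and met the criteria, and the summed signal was 1.17 to 1.43 in SD and 0.769 to 1.56 in CR. None of 3 tested leukocyte, 1 erythroid and 4 mesenchymal miRNAs met them. The endothelial miR-126-5p differed between CR and SD by -0.15 (adjusted p = 0.0154) and the leukocyte miR-142-3p by -0.16 (adjusted p = 0.0159), and both missed only the Z ratio limit, at -0.91 and -0.98. miR-451a, from red cells, differed between CR and SD by -0.62 (adjusted p = 0.144). The part of cell makeup or RNA quality in the let-7 values was not tested.

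The profile of the family over the 15 arrays, taken as the median of the 8 members each centered on its own mean, was followed most closely among the other 170 tested miRNAs by mmu-miR-365-3p, mmu-miR-99a-5p and mmu-miR-23b-3p. Their root mean square differences from it were 0.0608, 0.0719 and 0.0794, where the median of the other tested miRNAs was 0.173. mmu-let-7d-5p was the nearest member at 0.0335, followed by mmu-let-7a-5p and mmu-let-7i-5p, while mmu-let-7f-5p stood at 0.335, the 158th of 178 tested miRNAs. None of the 3 nearest miRNAs met the criteria, and their CR minus SD differences were -0.0273, -0.0823 and -0.0897. The members' own distances are partly fixed by their part in the median.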

How the data were processed

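Members and lists were chosen with earlier results of these data known. The authors deposited Agilent Feature Extraction 11.5.1.1 output per array, with the linear intensity of each spot and its background (not normalized between arrays), other flags for detection and outliers, and a table of 1 score per spot. Recomputed from the median signal of all 14635 spots, controls included and background kept, each deposited score matched a z-score of the ln signal to 0.0005. Outlier spots were dropped and spots, then probes, were averaged. Groups came from the labels. All 15 arrays entered 1 limma 3.58.1 fit (R 4.3.3, variance trend), with Benjamini-Hochberg adjustment over 178 miRNAs. The z-scores and limits follow the methods, whose z-test was an alternative. Pairs were compared by exact permutation in Python 3.11.15. No saturated spot was found. The mice are separate animals, and 5 arrays per diet limit the precision. Normexp used an offset of 50, and total gene signal a floor of 0.01. Both fits and pair tests were tested on simulated data. mmu-let-7 names are those of the array, and sequences and coordinates are RefSeq's.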

Additional observations from a re-analysis of the deposited data

Results flagged for a closer look

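Over 24 groups of 5 values, 8 members on 3 diets, 1 value lay far from its group. mmu-let-7e-5p in SD mouse 5 had a z-score of 0.268, while the next highest SD mouse had 0.103, a gap of 0.776 of the group's range. By chance about 1 in 20 such groups would hold a value of this kind.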

How the results depend on the processing

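The number of members that met the criteria for CR versus SD was 4 with the 75th percentile of detected probes (mmu-let-7b-5p, c, e and f, where 67.4% of all tested miRNAs met them), 1 with centring without division, the brightest probe, no filter, the pairwise z-test, an adjusted p of 0.05 or both CR mice 2 and 3 left out, 0 with the slide as a block, and 1 to 3 when each mouse was left out in turn. For CR versus Met it was 0 with total gene signal, arrays of 1 slide or both CR mice 2 and 3 left out, 1 with the slide as a block or an adjusted p of 0.05, and 1 to 2 when each mouse was left out. Here quantile normalization and z-scores over detected miRNAs each called mmu-let-7b-5p as higher and mmu-let-7f-5p as lower in CR, among 47 and 40 of the 178 tested miRNAs. For Met versus SD it was 2 with the pairwise z-test and 0 to 3 when each mouse was left out. With the replicate block the counts stayed at 2, 2 and 0, and the correlations of mice with the same number ran from -0.562 to 0.714. These were not set against correlations of mice with different numbers, so that whether the numbers pair mice was not tested.

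The number of pairs that differed for CR versus SD was 10, against 17, with either 75th percentile or with centring, and 0 to 18 when each mouse was left out. Because the adjustment is shared by the comparisons, a count can fall to 0 without a mouse that takes no part in it. For CR versus Met it was 0 on 1 slide, where 5 mice faced 2, and 0 to 17 when each mouse was left out. The smallest p that 5 against 2 mice allow passes the adjustment only if nearly all tests reach it. The 0 on 1 slide was thus nearly fixed in advance. For Met versus SD it was 1 with both 75th percentiles, quantile normalization, centring, normexp and the brightest probe, 0 on 1 slide, and 0 to 2 when each mouse was left out. Fewer mice on 1 slide raised the smallest p here too. Leaving out both CR mice 2 and 3, chosen after seeing the data, gave 0 in each comparison. The smallest p was then larger, and Met versus SD holds neither mouse, so that these 0s do not tell how far the gaps rest on them.

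The following Z ratios changed sign, and the cause was not tested. Scaled to the 75th percentile of all probes, CR versus SD was -0.86 for the members' median, -1.10 for let-7a and -0.39 for let-7c, and CR versus Met was -0.49 for let-7b. Scaled to the 75th percentile of detected probes, CR versus SD was 1.38 for let-7d and 1.39 for let-7i, and CR versus Met was 0.73 for the members' median, 0.89 for let-7c, 0.59 for let-7d, 1.76 for let-7e and 0.88 for let-7i. Without both CR mice 2 and 3, CR versus SD was 1.34 for let-7d and 0.40 for let-7i, and CR versus Met was 0.0288 for the members' median, 0.42 for let-7c, 0.15 for let-7d and 0.34 for let-7e. With the brightest probe, CR versus SD was 0.17 for let-7d. With centring, CR versus SD was -0.68 for the members' median, -0.92 for let-7a and -0.21 for let-7c, and CR versus Met was -0.30 for let-7b. With normexp, CR versus SD was 0.20 for let-7d, and CR versus Met was 0.0489 for let-7c. With quantile normalization, CR versus SD was 2.05 for let-7d, 0.16 for let-7g and 0.50 for let-7i, and CR versus Met was 0.0423 for the members' median, 1.16 for let-7c, 1.09 for let-7d and 0.21 for let-7e. With the slide as a block, CR versus SD was 0.13 for let-7d and -0.0922 for let-7e. With total gene signal, CR versus SD was 0.87 for let-7d and 0.50 for let-7i, and CR versus Met was 0.66 for the members' median, 0.61 for let-7a, 1.02 for let-7c, 0.72 for let-7d, 0.92 for let-7e and 0.39 for let-7i. With z-scores over detected miRNAs, CR versus SD was 0.77 for let-7d and 0.0764 for let-7i, and CR versus Met was 0.72 for let-7c and 0.36 for let-7e.

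With each mouse left out in turn, Z ratios that changed sign ran from -0.19 to 0.59 for the median of the let-7 members, CR versus SD, from -0.0614 to 0.84 for let-7a, CR versus SD, from -0.33 to 0.42 for let-7d, CR versus SD and from -0.50 to 0.0274 for let-7e, CR versus Met. In all settings run, mmu-let-7f-5p stayed lower in CR against SD and Met, and mmu-let-7b-5p stayed higher in CR against SD. All 8 members stayed higher in Met than in SD.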
